A study of Mus musculus with 6 samples.

Results

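The transcripts described here are 1317 loci of mouse adrenal gland RNA to which the deposited count table gives no gene name and which lie beside, but not on top of, a named gene. They are the unnamed loci that held at least 60 raw counts summed over 6 libraries, overlapped no named locus and lay within 10 kb of one. The table holds 59699 loci, of which 6596 have no name, and 1693 of these lie close to a named locus at any count. Each was classed against its nearest named locus: 816 lay downstream on the same strand, 176 upstream on the same strand and 325 on the opposite strand. The nearest locus was taken by position alone. For 276 of the 1317 it held under 60 counts itself (114 downstream, 59 upstream and 103 opposite). Of the opposite-strand loci, 207 lay on the 5′ side of the gene, where its promoter is, and 118 on the 3′ side. They were thus chosen by their summed counts over both genotypes, without a rule on the difference between the genotypes, but a transcript with few counts in 1 genotype could enter only through the other.

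Whole adrenal glands of female mice aged 30 weeks, of strain background 129 sv X CD1, were compared between 3 wild-type (WT) samples and 3 samples of the Armc5 knockout (KO, Armc5(-/-)). No other allele or treatment is named, the labels do not say which part of Armc5 was removed or whether a sample was 1 animal or a pool, and no Cre or transgene is mentioned. Because nothing says that the samples came from separate animals, p-values measure only the spread between these samples. The libraries were made from rRNA-depleted total RNA with a kit that keeps strand, so RNA without a poly(A) tail could be read too. In whole glands, fewer cells of a type and less RNA per cell cannot be told apart.

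RNA polymerase II does not stop where an mRNA ends. The transcript is cut at the poly(A) site, the polymerase runs on for some distance, and the RNA behind the cut is normally destroyed while the polymerase is released, so little stable RNA is left downstream of a gene. Many mammalian promoters also start a second transcript in the other direction, a promoter upstream antisense RNA, which the nuclear exosome normally removes. Genes of small nuclear and nucleolar RNAs end in other ways, and transfer RNA genes are read by RNA polymerase III. ARMC5 is known to bring RNA polymerase II, through its large subunit, to a cullin 3 ubiquitin ligase. Transcripts at the edges of genes are where changes in starting, ending or removing RNA would be read.

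To show where the opposite-strand transcripts of the 5′ side lie relative to a promoter, the 250 bases before the start site of 4 genes are printed below on the gene's strand, from RefSeq on GRCm38.p6, with the bases inside the unnamed transcript in capitals. They are the windows of Gnai3 (chr3:108146153-108146402, minus strand), Bcl6 (chr16:23988853-23989102, minus strand), Zswim6 (chr13:107890065-107890314, minus strand) and Creb3l2 (chr6:37442149-37442398, minus strand). The transcripts run on the plus strand, away from each gene.
Gnai3: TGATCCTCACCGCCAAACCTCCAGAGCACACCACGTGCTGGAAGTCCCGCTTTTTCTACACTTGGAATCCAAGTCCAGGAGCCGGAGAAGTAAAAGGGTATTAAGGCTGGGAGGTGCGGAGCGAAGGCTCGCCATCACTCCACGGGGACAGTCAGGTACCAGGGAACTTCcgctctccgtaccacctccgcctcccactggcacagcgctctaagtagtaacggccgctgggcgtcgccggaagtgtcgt
Bcl6: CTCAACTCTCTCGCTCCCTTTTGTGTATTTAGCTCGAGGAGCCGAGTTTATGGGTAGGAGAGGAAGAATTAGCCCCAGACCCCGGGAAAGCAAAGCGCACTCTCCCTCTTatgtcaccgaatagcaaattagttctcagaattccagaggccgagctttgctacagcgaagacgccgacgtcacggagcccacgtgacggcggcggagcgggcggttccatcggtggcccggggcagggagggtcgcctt
Zswim6: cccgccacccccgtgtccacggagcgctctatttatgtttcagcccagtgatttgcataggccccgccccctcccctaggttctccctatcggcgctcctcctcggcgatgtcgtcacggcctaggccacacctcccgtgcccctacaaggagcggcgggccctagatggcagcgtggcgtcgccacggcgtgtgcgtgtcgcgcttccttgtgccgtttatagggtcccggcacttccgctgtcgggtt
Creb3l2: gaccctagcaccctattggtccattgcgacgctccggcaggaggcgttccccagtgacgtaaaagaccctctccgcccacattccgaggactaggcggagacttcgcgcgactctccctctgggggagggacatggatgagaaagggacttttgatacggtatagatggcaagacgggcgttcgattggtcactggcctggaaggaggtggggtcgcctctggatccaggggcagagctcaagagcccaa
The transcript beside Gnai3 held 170 of the 250 bases and that beside Bcl6 held 110, whereas those beside Zswim6 and Creb3l2 began outside the window. RefSeq gave a promoter window for 105 of the 207 opposite-strand loci of the 5′ side, and 40 of the windows overlapped the unnamed transcript. Over the 101 different windows the median GC share was 62.4%, against 52.4% over all 32817 RefSeq windows of the same length, and the median ratio of observed to expected CpG was 0.825 against 0.373. The hexamer AATAAA, the common poly(A) signal, was present on either strand in 8 of the 101 windows (7.92%) and in 18.1% of all windows. Genes expressed in a tissue are often those with CpG-rich promoters, and the windows were not matched for expression.

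The unnamed transcripts were mostly short, low and of 1 exon. Their median width was 884 bases (201 to 71069), 1220 of the 1317 (92.6%) had a single exon, and the median gap to the gene was 985 bases. Summed counts ran from 60 to 36562 with a median of 480. Counted per base of exon, and where the nearest gene itself held at least 60 counts, the median transcript stood at 25.6% of its gene downstream, 49.2% upstream and 14.9% on the opposite strand. One locus overlapped a GENCODE M21 gene (Snhg14), and 430 overlapped the extent of a RefSeq gene, in 266 cases the nearest gene itself, 222 of them downstream, where RefSeq ends the gene further out than the deposited table does. The other 164 overlapped only RefSeq genes other than the nearest. Among these are the transcripts beside Creb3l2 (Gm33318), Bcl6 (Gm31527), Agbl5 (Gm35795), Gm46560 (Gm34032), Gm17276 (Gm30729) and Gm10941 (Gm40703). Overlap was taken by position, without regard to strand. The 1317 transcripts were spread over 1195 nearest loci, 105 of which had 2 to 4 of them (227 transcripts in all), so transcripts beside 1 gene are not independent. On chromosome Y there were 16 loci although the samples are labelled female. Near-identical counts in every library, within 5% or 3 counts, marked 22 loci as copies of another, 8 of them on chromosome Y, and reads of such copies cannot be told apart; none of the 22 was called in the test below.

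Armc5 itself was lower in every KO library, at 395, 269 and 473 counts against 2763, 3263 and 2233 in WT (edgeR quasi-likelihood test, adjusted p = 0.000523). Library totals ran from 70547288 to 130573434 counts. All unnamed loci together took 1.39% to 1.56% of the raw counts in WT and 1.77% to 2.04% in KO. The transcripts described here took 0.238% to 0.265% in WT and 0.298% to 0.339% in KO. Neither raw share overlapped between the genotypes. The TMM scaling factors used in the tests did not overlap either, at 0.863 to 1.01 in WT and 1.07 to 1.10 in KO. In CPM (counts scaled to the size of a library, with these factors) the summed level of the transcripts described here did overlap. It was 2803, 2677 and 2923 CPM in WT and 2954, 3140 and 2827 CPM in KO. Markers of adrenal cortex cells (6 genes such as Star and Cyp11a1) had a median log2 fold change of -0.54, with 6 of 6 negative. Of these edgeR called 0, with 3 lower at an unadjusted p under 0.05, and DESeq2 called 2 lower. Markers of chromaffin cells (5 genes) had a median of 0.85, and edgeR called 2 higher (Chga and Dbh) and DESeq2 all 5. KO replicate 3 held 3318 CPM of 6 hepatocyte genes against 17.3 to 61.6 in the other libraries. The part of cell makeup and of the liver RNA in the results below was not tested, and values without KO replicate 3 are given where they matter.

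More of the unnamed transcripts were higher than lower in KO, but the share that passed the test was not above that of all loci. Of 1300 transcripts with enough counts to be tested, 22 rose and 0 fell in KO (edgeR quasi-likelihood test, adjusted p under 0.05). These 22 are 1.69% of those tested, against 1.87% called over all 26295 tested loci, where 1.53% were higher and 0.342% lower. At an unadjusted p under 0.05, 200 were higher and 42 lower, and the share of all loci at this limit is not given here. DESeq2 called 115 of the 1300 higher and 13 lower, and over all loci it called 3044 of 26295 (11.6%). The 3 KO libraries lay above all 3 WT libraries for 251 transcripts (19.3%) and below them for 85 (6.54%), whereas over all tested loci these shares were 17.5% and 12.4% (29.9% in both directions). Without WT replicate 1, 2 or 3 the number called was 11, 21 or 4, and without KO replicate 1, 2 or 3 it was 1, 4 or 2, of which 11, 13, 4, 1, 2 and 2 were among the 22. Over all loci the same fits called 389, 664, 32, 17, 40 and 37. The minimum of 60 counts let 66 transcripts in with under 30 counts in WT, 5 of the 22 among them, and 21 with under 30 counts in KO, so for these a difference is in part a result of the choice.

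**Figure D1:**
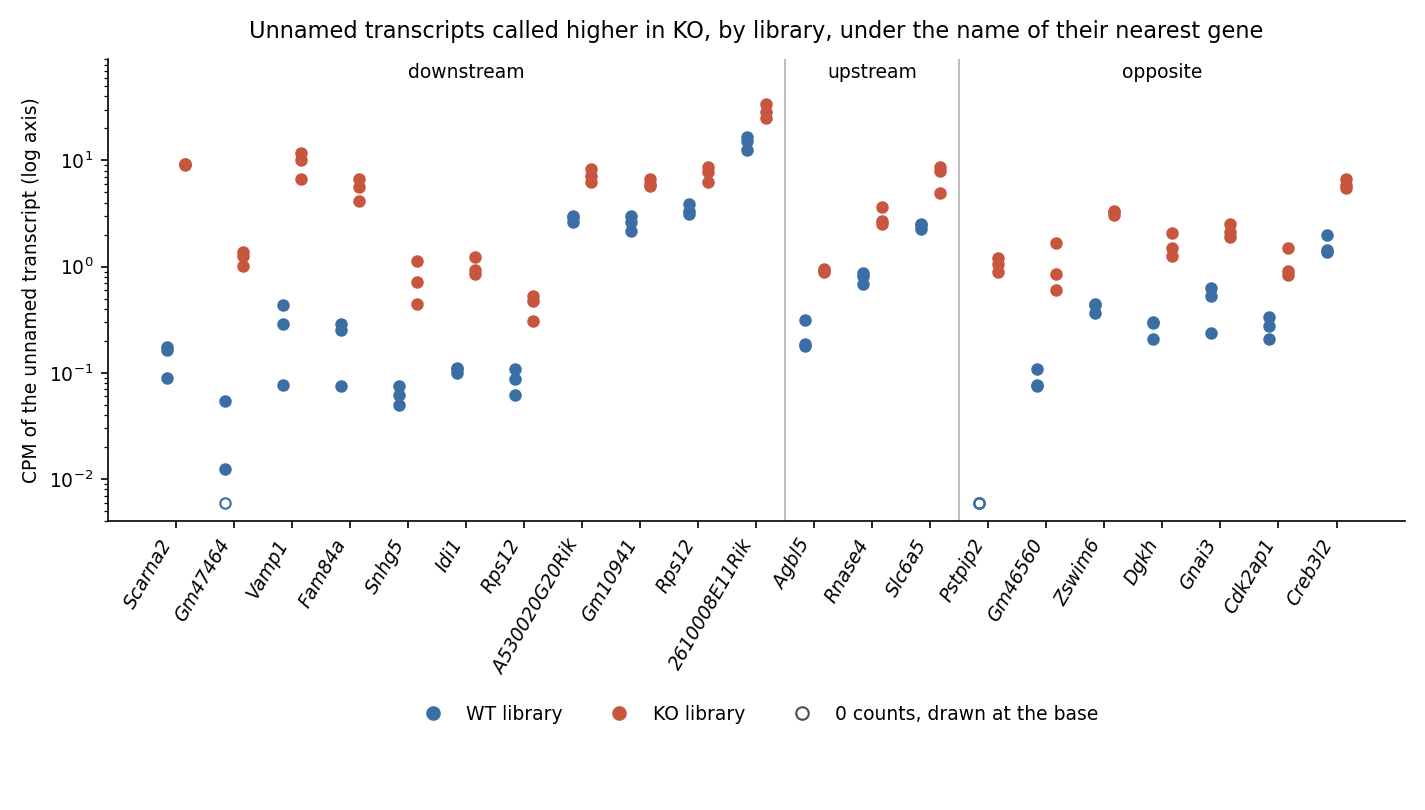
CPM of 21 of the 22 called transcripts in the 3 WT (blue) and 3 KO (red) libraries, on a log axis, by position beside the nearest gene named on the horizontal axis (first gene of a merged locus; open points at the base are libraries with 0 counts). No KO library overlaps a WT library in any of the 21 drawn, and the transcripts beside Scarna2, Vamp1 and Fam84a stand near or below 0.3 CPM on average in WT and at 5.51 to 9.48 CPM in KO.

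Downstream of genes, 12 of 810 tested transcripts rose in KO (1.48%, against 1.53% called higher over all loci), and the largest of these changes came where WT had almost no reads. A transcript of 5179 bases at chr3:108547303-108552481 on the minus strand begins 1856 bases after Scarna2, a small RNA of Cajal bodies that guides the modification of spliceosomal RNA. It held 9, 21 and 14 counts in WT and 997, 704 and 1209 in KO, so every KO library was far above every WT library. In CPM it went from 0.142 ± 0.0464 to 9.2 ± 0.16 (SD, n = 3 per genotype), and its log2 fold change was 6.01 with an SE of 0.29 (edgeR adjusted p = 0.00182); the call held without any single library (adjusted p from 0.00433 to 0.0203). Scarna2 did not pass, with 162 ± 8.73 CPM in WT and 137 ± 9.2 in KO (log2 fold change -0.25, adjusted p = 0.192).

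Vamp1 and Fam84a, which are protein-coding, had the next well-counted transcripts of this kind. After Vamp1, a synaptic vesicle protein of the SNARE family, chr6:125247987-125251969 on the plus strand held 29, 10 and 35 counts in WT and 1107, 890 and 875 in KO (log2 fold change 5.18, SE 0.63, edgeR adjusted p = 0.0228). Vamp1 itself was at 82.1 ± 10.4 and 140 ± 23.4 CPM and missed the threshold (log2 fold change 0.78, adjusted p = 0.0653). After Fam84a, chr12:14140271-14145614 on the minus strand held 29, 33 and 6 counts in WT and 624, 513 and 536 in KO (log2 fold change 4.71, SE 0.51, edgeR adjusted p = 0.0181). Here the gene rose as well, from 9.24 ± 1.46 to 26.1 ± 5.19 CPM (log2 fold change 1.5, adjusted p = 0.0262). Both transcripts showed wide gaps between the genotypes, but the call beside Vamp1 held in 1 of the 6 fits that left out a library and that beside Fam84a in 3.

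Smaller transcripts completed the downstream set. After Gm47464, a predicted gene, 0, 7 and 1 counts in WT stood against 151, 78 and 163 in KO (chr13:113790467-113791247, minus strand; edgeR adjusted p = 0.0311), and the gene beside it was almost as empty in WT, with 0, 3 and 3 counts against 46, 17 and 71. After Idi1, an enzyme of isoprenoid and cholesterol synthesis, chr13:8894416-8895192 on the plus strand held 11, 13 and 9 counts in WT and 103, 93 and 110 in KO (log2 fold change 3.21, SE 0.29, adjusted p = 0.0144). After Snhg5, a host gene of small nucleolar RNAs, chr9:88518231-88518980 on the minus strand held 5, 8 and 6 against 80, 86 and 57 counts (log2 fold change 3.60, SE 0.47, adjusted p = 0.0262). None of these ranges overlapped, and neither Idi1 nor Snhg5 passed the test. The calls after Gm47464 and Idi1 each held in 2 of the 6 fits that left out a library, and that after Snhg5 in 0. A pair of transcripts followed Rps12, the ribosomal protein gene that carries Snora33 and Snord100: the nearer (chr10:23779796-23784862) rose 2.20-fold from 3.45 ± 0.383 to 7.59 ± 1.16 CPM and the farther (chr10:23778283-23778711) 5.06-fold from 0.0859 ± 0.0234 to 0.438 ± 0.114 CPM, with Rps12 at 101 ± 3.73 and 111 ± 2.15 CPM. Calls were also made after the loci A530020G20Rik (2.54-fold), Gm10941 (2.35-fold) and 2610008E11Rik (1.97-fold). The last was the highest of the 22, at 14.8 ± 2.15 CPM in WT and 29.1 ± 4.55 in KO. The transcripts after Gm47464 and Snhg5, and the farther one after Rps12, held under 30 counts in WT. They could enter only by being higher in KO, so their difference is in part a result of the choice.

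Upstream on the same strand, 3 of 174 tested transcripts rose (1.72%, near the 1.53% called higher over all loci). Before Agbl5, an enzyme that trims polyglutamylated tubulin, chr5:30887621-30888327 on the plus strand held 32, 23 and 15 counts in WT and 101, 73 and 115 in KO (log2 fold change 2.01, SE 0.31, edgeR adjusted p = 0.0406). Before Rnase4 and Ang, secreted ribonucleases that share promoters, chr14:51089452-51089772 on the plus strand held 69, 105 and 70 against 299, 275 and 328 counts (log2 fold change 1.90, SE 0.23, adjusted p = 0.0212). These transcripts overlap, by position, RefSeq genes of tyrosine transfer RNA, n-TYgta9 and n-TYgta10. Rnase4/Ang, which liver also makes in quantity, had 14472 counts in KO replicate 3 against 2457 to 4821 elsewhere, while the transcript before it had 2.53 CPM there against 2.71 and 3.61 in the other KO libraries. Before Slc6a5, the neuronal glycine transporter, chr7:49896923-49900575 rose 2.96-fold. Slc6a5 itself had a log2 fold change of 1.66 and did not pass (edgeR adjusted p = 0.152). Its libraries overlapped, at 4.80, 2.76 and 6.22 CPM in WT and 5.50, 18.4 and 19.7 in KO. All 3 called transcripts were free of overlap, which 44 upstream transcripts showed in the higher direction and 2 in the lower (25.3% and 1.15%, beside 17.5% and 12.4% of all loci). The call before Rnase4/Ang held in 2 of the 6 fits that left out a library, that before Agbl5 in 1 and that before Slc6a5 in 0.

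Opposite to the gene, 7 of 316 tested transcripts rose (2.22%, against 1.53% called higher over all loci), 6 of them on the 5′ side. None of the genes tested beside them passed. The transcript beside Zswim6, a zinc finger protein, starts 375 bases from the gene (chr13:107890440-107893215, plus strand; promoter printed above). It held 37, 57 and 35 counts in WT and 372, 249 and 397 in KO, or 0.414 ± 0.0424 against 3.23 ± 0.153 CPM (log2 fold change 2.96, SE 0.20, edgeR adjusted p = 0.00491). Zswim6 stood at 30.6 ± 2.73 and 24.7 ± 1.98 CPM (log2 fold change -0.31, adjusted p = 0.189), so the gene did not pass and the transcript did. Beside Creb3l2, a membrane-bound transcription factor of the secretory pathway, chr6:37442431-37448492 held 203, 187 and 111 counts in WT and 740, 422 and 752 in KO (log2 fold change 1.90, SE 0.21, adjusted p = 0.0191), with the gene at 206 ± 10.8 and 226 ± 13.2 CPM. Beside Gnai3, an inhibitory G protein subunit, chr3:108146233-108147854 held 64, 68 and 19 against 281, 162 and 244 counts (log2 fold change 2.22, SE 0.38, adjusted p = 0.0492), and beside Dgkh, a diacylglycerol kinase, chr14:78734359-78735389 held 30, 27 and 24 against 139, 157 and 195 (log2 fold change 2.58, SE 0.30, adjusted p = 0.0207). Neither gene passed. Leaving out 1 library kept the call beside Zswim6 in 5 of 6 fits, beside Creb3l2 and Dgkh in 2 each and beside Gnai3 in 0.

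Beside Pstpip2, an actin-binding protein of macrophages, no read was counted in any WT library and 134, 68 and 136 were counted in KO, on chromosome 18. With the WT group set to a floor of 3 counts the transcript was at least 111-fold higher in KO (edgeR adjusted p = 0.0165), and Pstpip2 was at 3.48 ± 1.38 and 5.57 ± 0.816 CPM. The transcript nearest to Gm46560 (chr16:31499468-31500447, minus strand; 11, 10 and 6 against 94, 46 and 218 counts) lies 7939 bases from that gene, which had 18 counts in all. On the 3′ side only the transcript beside Cdk2ap1, an inhibitor of a cell cycle kinase, passed (chr5:124343904-124344523, plus strand), with 28, 27 and 27 counts in WT and 167, 70 and 109 in KO (log2 fold change 2.00, SE 0.35, adjusted p = 0.0497). The call beside Pstpip2 held in 3 of the 6 fits that left out a library, and those beside Gm46560 and Cdk2ap1 in 0. The transcripts beside Pstpip2 and Gm46560 held under 30 counts in WT and could enter only by being higher in KO. For these 2 the difference is in part a result of the choice. Beside Bcl6, a transcriptional repressor, the transcript of the printed promoter had 988, 984 and 1245 counts in WT and 3711, 1152 and 3465 in KO. At 11.0 ± 4.08 and 25.2 ± 9.35 CPM its libraries overlapped, and it did not pass (adjusted p = 0.144).

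As groups, the upstream and opposite-strand transcripts stood higher in KO than the downstream ones. The median log2 fold change was 0.05 downstream, 0.34 upstream and 0.37 on the opposite strand (0.39 on the 5′ side and 0.32 on the 3′ side), beside 0.03 over all loci tested and -0.0079 over named loci. Of the tested transcripts 436 of 810 were positive downstream (53.8%), 122 of 174 upstream (70.1%) and 227 of 316 on the opposite strand (71.8%). Over all tested loci 52.9% were positive, and over named loci 49.1%. Among the 1300 tested transcripts, 58 held under 30 counts in WT, all 58 positive, and 15 held under 30 in KO. For these the sign is in part set by the count minimum. Unnamed loci elsewhere were also higher, with medians of 0.33 for the 3314 tested that overlap a named gene and 0.21 for the 419 more than 10 kb away. A positive median was thus also seen in unnamed loci elsewhere. Unnamed loci also took a larger share of the raw counts in KO. That share includes these same transcripts, and its part in the median was not tested. With library sizes alone the median of all loci was 0.26 and that of the 1300 transcripts 0.37, against 0.03 and 0.15 with the scaling used here. The downstream median turned to -0.04 without KO replicate 2.

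**Figure D2:**
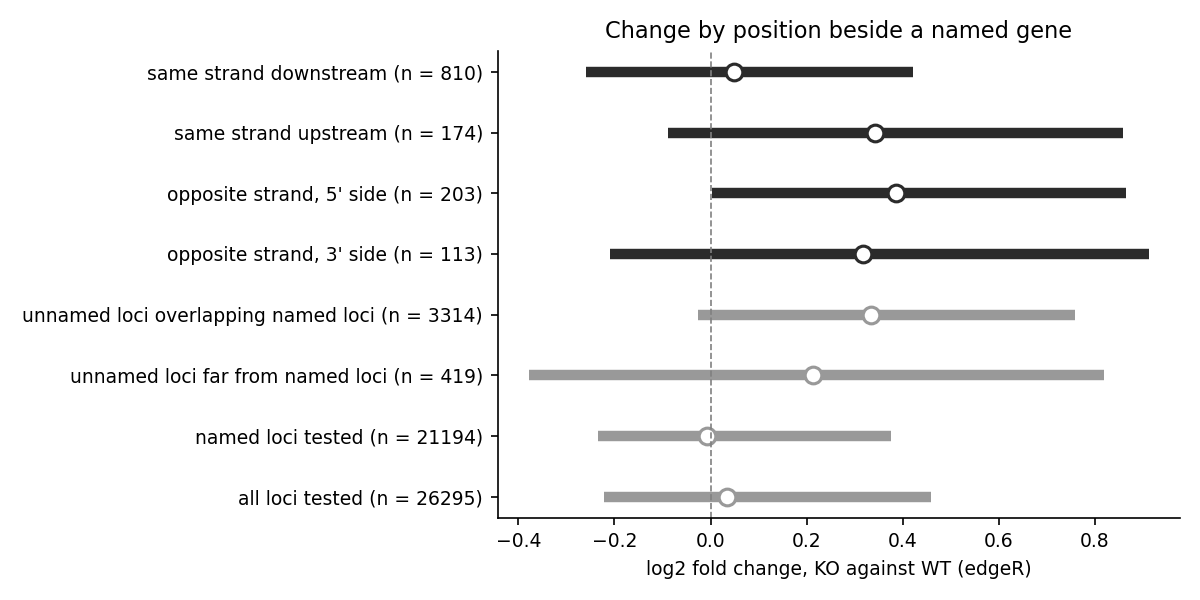
Median (open point) and quartiles (bar ends) of the log2 fold change between KO and WT, for the 4 positions beside a gene (black) and for other loci (grey), with the number tested. The downstream median of 0.05 sits beside that of all loci, 0.03, and the upstream and opposite-strand medians lie at 0.32 to 0.39, near that of unnamed loci overlapping genes, 0.33.

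Downstream transcripts varied with the gene they come after more than opposite-strand transcripts did with theirs, as a description of these loci. Across pairs in which both were tested, the log2 fold changes of transcript and gene had a Pearson r of 0.42 and a Spearman rho of 0.45 downstream (697 pairs), 0.19 and 0.21 upstream (115 pairs) and -0.02 and -0.10 on the opposite strand (215 pairs). These correlations are across loci that share the same 6 libraries, so they describe the libraries and have no p. Downstream, the 187 pairs in which RefSeq counts the transcript as part of the gene had a Pearson r of 0.65, and the other 510 an r of 0.38. Named loci beside another named locus gave a Pearson r of 0.21 downstream (818 pairs), 0.28 upstream (756) and 0.09 opposite (2122). The link to the gene was closest where the gap was smallest: downstream transcripts under 500 bases from the gene had an r of 0.61 and stood at a median of 59.5% of the gene per base, and those from 2000 to 5000 bases an r of 0.30 at 16.3%. In the same gap ranges the median difference between transcript and gene was 0.03 and 0.18 on the log2 scale. The median difference over all pairs was 0.11 downstream, 0.32 upstream and 0.50 opposite, where 75.3% of pairs were positive, against 0.06, -0.04 and 0.01 for named loci in the same positions. Split into 3 ranges of summed count, the downstream difference went from 0.21 among the lowest counts to 0.04 among the highest, the upstream one from 0.71 to 0.05, and the opposite one stayed near 0.50 (0.50, 0.49 and 0.53). Of the 1300 tested transcripts, 58 held under 30 counts in WT, all 58 positive, and 15 held under 30 in KO. Such transcripts entered only through 1 genotype, and their part in the larger differences at low counts was not tested.

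**Figure D3:**
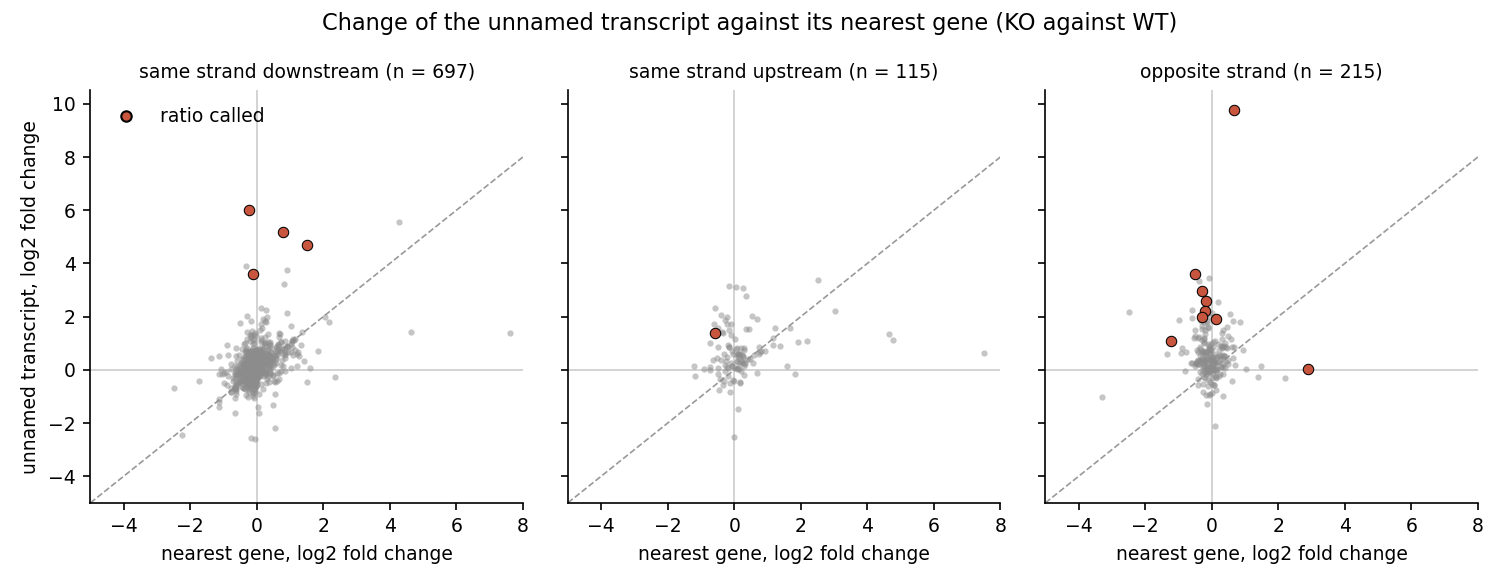
Log2 fold change of each transcript (vertical) against that of its nearest gene (horizontal), one point per pair, by position. The dashed line marks equal change, red points are the pairs whose ratio differed between genotypes, and the highest point, beside Pstpip2 with 0 counts in WT, is a fitted value and not a bound.

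The ratio of a transcript to its gene within each library does not depend on scaling. Of 1041 transcripts whose gene also held at least 60 counts, the ratio differed between the genotypes for 14 (limma on the log2 ratio with 0.5 added to both counts, adjusted p under 0.05), 13 higher and 1 lower in KO. Over all 4268 pairs of an unnamed and a named locus 1.34% differed, 1.22% higher and 0.117% lower, which is near the share of 14 in 1041. By position the 14 fell unevenly, 4 of 702 downstream, 1 of 117 upstream and 9 of 222 on the opposite strand, a difference that was not tested. Among the 14, the largest ratio change with reads in WT was that of the transcript after Scarna2 (log2 difference 6.27, SE 0.33, limma adjusted p = 0.000471), followed by those after Vamp1 (4.63, SE 0.50, adjusted p = 0.0117) and beside Gadd45b, a stress-induced growth arrest gene (3.74, SE 0.63, adjusted p = 0.0386). The transcript opposite Gadd45b on its 3′ side had 6, 14 and 7 counts in WT and 154, 22 and 185 in KO, and did not pass the edgeR test alone (adjusted p = 0.0571). Of the 14, the transcripts beside Gadd45b, Pstpip2 and Snhg5 held under 30 counts in WT. They could enter only by being higher in KO, so their higher ratio is in part a result of the choice. Beside Zswim6 the ratio rose by 3.26 (SE 0.24, adjusted p = 0.00248), and beside Creb3l2 by 1.77, Dgkh by 2.72 and Gnai3 by 2.50. Without 1 library the number of ratio calls ranged from 3 (without KO replicate 1 or KO replicate 3) to 16 (without KO replicate 2), with 6 without WT replicate 3.

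Read library by library, the median opposite-strand transcript of the 5′ side stood at 0.883%, 1.10% and 1.09% of its gene's count in the WT libraries and at 1.72%, 1.5% and 1.65% in KO. All KO libraries lay above all WT libraries in this median. The 3′ side had 2.12%, 2.00% and 1.55% against 2.33%, 2.74% and 2.14%, and downstream transcripts 5.82%, 6.37% and 6.54% against 6.76%, 7.28% and 6.87%. Upstream, 7.88%, 8.45% and 9.45% in WT overlapped 9.44%, 11.4% and 8.98% in KO. Unnamed loci that overlap a named locus moved likewise, from 4.29%, 4.58% and 4.48% to 5.51%, 5.89% and 5.29% of that locus.

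**Figure D4:**
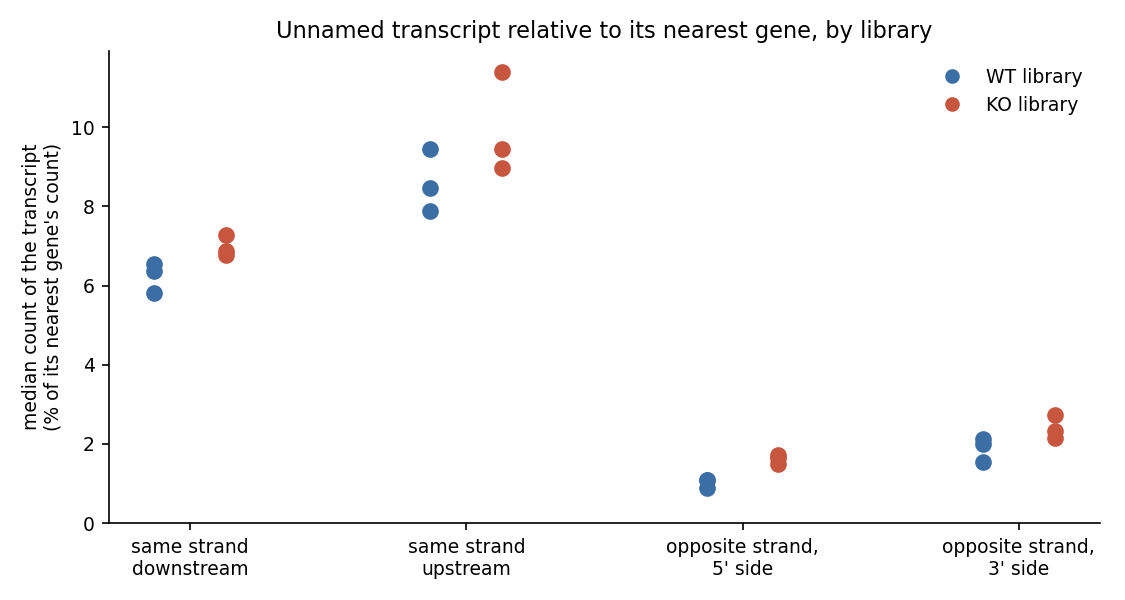
Median count of the unnamed transcripts as a percentage of the nearest gene's count, 1 point per library, for 4 positions. WT (blue) and KO (red) libraries do not overlap except upstream, and the relative gap is widest on the 5′ side of the opposite strand, 0.883% to 1.10% against 1.5% to 1.72%.

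The lone ratio that fell belonged to Nefm, the medium neurofilament chain. Nefm rose from 95, 107 and 84 counts in WT to 846, 532 and 812 in KO (log2 fold change 2.89, edgeR adjusted p = 0.00491). The transcript that starts 120 bases away on the opposite strand (chr14:68124967-68131407) held 85, 108 and 69 in WT and 101, 60 and 112 in KO. It overlaps the RefSeq extents of Nefm and of another gene, A230070E04Rik. Its level was 0.845 ± 0.0129 and 0.855 ± 0.0642 CPM, with overlapping groups, and the ratio fell by 2.87 on the log2 scale (SE 0.25, limma adjusted p = 0.0047). The reverse was seen beside Rny3, a Y RNA bound by the Ro protein. Rny3 fell from 83.3 ± 15 to 35.7 ± 5.21 CPM (log2 fold change -1.22, edgeR adjusted p = 0.0301), and the opposite transcript (chr6:47767528-47778433) stood at 0.527 ± 0.101 and 1.13 ± 0.182 CPM (adjusted p = 0.0863), with a ratio higher by 2.31 (SE 0.36, limma adjusted p = 0.0338). Upstream of Gm17276 the transcript at chr17:32109125-32112192 had 342, 157 and 157 counts in WT and 778, 336 and 748 in KO, and a ratio to the gene higher by 2.00 (SE 0.30, adjusted p = 0.0301). In the 6 fits that left out a library, the ratio call beside Nefm held in 6, that beside Rny3 in 1 and that beside Gm17276 in 2.

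Beside the 13 transcripts whose gene was called with at least a 2-fold change, some downstream pairs had like values and others did not. Herc6, an interferon-induced ubiquitin ligase, had a log2 fold change of 1.36 and the transcript 459 bases after it 1.41 (100, 165 and 43 counts in WT, 252, 290 and 184 in KO). Taf4b, a subunit of the general factor TFIID, had 1.07 and its downstream transcript 1.07, from 86, 82 and 59 to 154, 145 and 176 counts. Both transcripts lie within the RefSeq extent of the same gene, so these pairs compare a gene with what RefSeq counts as its own end. The genotypes did not overlap in either transcript, but neither passed on its own (edgeR adjusted p = 0.159 and 0.0801). Others did not keep pace: after Fer, a tyrosine kinase with a log2 fold change of 1.02, the transcript had 0.08, and after Pigl, an enzyme of GPI anchor synthesis with -1.04, it had -0.15, also within the RefSeq extent of the gene. After 4930477E14Rik, which had 0 counts in WT and 31, 16 and 27 in KO, the transcript held 11, 4 and 3 counts in WT and 14, 2 and 39 in KO (log2 fold change 1.39, edgeR adjusted p = 0.42). Upstream of Rny3, which fell by 1.22, the transcript had 0.16 (adjusted p = 0.896). After Neto2 the values were 1.23 for the gene and 0.68 for the transcript, after Rps6ka6 1.22 and 0.59, and after Ifih1, a sensor of double-stranded RNA, 1.04 and 1.66. Upstream of Ren1, which encodes renin and had a log2 fold change of 4.77, the transcript varied as much within WT (3, 94 and 222 counts) as it did between the genotypes (199, 338 and 190 in KO; adjusted p = 0.617).

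Transcripts that follow a small RNA gene held 4 of the 22 calls, in a split made after the values were seen. A small nuclear, nucleolar or Cajal body RNA gene of GENCODE M21 lay on the same strand within 10 kb before 25 transcripts, 23 of them tested, and 4 rose (17.4%), against 18 of 1277 others (1.41%), beside the 1.53% called higher over all loci. The 4 are those after Scarna2, Snhg5 and Rps12 described above, the last with 2 transcripts, so they come from 3 genes. In WT the 3 libraries together held 19 counts after Snhg5, 26 for the farther and 1084 for the nearer transcript after Rps12, and 44 after Scarna2. The transcripts with 19, 26 and 44 counts in WT thus reached the minimum of 60 only through KO, and the first 2 of them could enter only by being higher there, so the share called is no support for a difference of this group. Of the 23, 17 had a positive and 6 a negative log2 fold change, and the median was 0.42. The transcript 5 bases after the small nuclear RNA gene Gm22360 held 2721, 3417 and 2067 counts in WT and 2670, 1685 and 3275 in KO (log2 fold change -0.14), and that after Gas5, another host of nucleolar RNAs, had 0.19. Leaving out any 1 of the 6 libraries left 1 or 2 of these transcripts called.

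Transcripts that overlap a transfer RNA gene had mostly positive changes in KO, also in a split made after the values were seen. RefSeq transfer RNA genes overlapped 27 of the 1317 transcripts, loci of 201 to 707 bases, 8 downstream, 7 upstream and 12 opposite. Any overlap in position counted and strand was not compared, so the reads need not be those of the transfer RNA. Of the 25 tested, 24 had a positive log2 fold change and 1 a negative one, with a median of 1.23. Of the 25, 8 held under 30 counts in WT and entered through KO, all 8 with a positive value, and 1 held under 30 in KO, with a negative value. For these the sign is in part set by the count minimum. The KO libraries all lay above the WT libraries for 13 of the 25 (52.0%) and below for 0, beside 18.7% of the other transcripts and 17.5% of all loci; 5 of the 13 had under 30 counts in WT. Those before Agbl5 and Rnase4/Ang passed the test (8%), and 8 had an unadjusted p under 0.05. Summed over the 27, the level was 8.84, 7.78 and 6.48 CPM in WT and 18.6, 15.8 and 17.2 CPM in KO, with no overlap. The highest was the transcript over the histidine gene n-THgtg5 (chr2:122377896-122378263, plus strand), with 349, 414 and 176 counts in WT and 604, 330 and 692 in KO (log2 fold change 0.78, edgeR adjusted p = 0.127). Over the glycine gene n-TGacc1 (chr11:48823737-48823982) there were 19, 3 and 0 counts in WT and 66, 86 and 62 in KO (adjusted p = 0.15). The positive count was 22 of 23 without both WT replicate 1 and KO replicate 3, and 24 to 26 with 1 negative without any single library, and at a minimum of 1 CPM in 3 libraries only 2 were left to test. Mature transfer RNAs are near-identical between gene copies, so the values of single loci are uncertain.

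**Figure D5:**
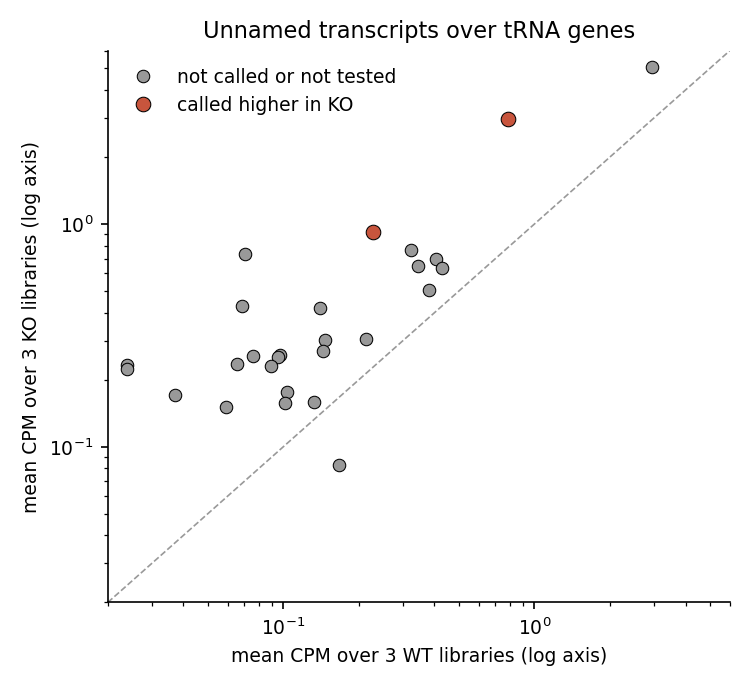
Mean CPM over the 3 KO libraries against the 3 WT libraries, both on log axes, for the 27 transcripts over RefSeq transfer RNA genes. All but 1 lie above the dashed line of equal level, and the 2 called transcripts (red) are those before Agbl5 (0.227 against 0.92 CPM) and Rnase4/Ang (0.789 against 2.95 CPM).

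The 3 most abundant transcripts of each position did not pass the test. After the merged locus Ctnnd1/Selenoh/Tmx2, chr2:84587096-84597336 stood at 63.1 ± 6.25 CPM in WT and 53.7 ± 1.02 in KO, with log2 fold changes of -0.23 for both the transcript and the locus. After Chrna7, a nicotinic acetylcholine receptor subunit, the transcript at chr7:63095512-63098278 had 2915, 4274 and 2089 counts in WT and 4384, 3201 and 5014 in KO, almost the counts of Chrna7 itself (2912, 4640, 2033, 4434, 3453 and 5158), with log2 fold changes of 0.45 and 0.48. Here the separation of the genotypes in CPM was complete, 29.3 ± 3.55 against 40.1 ± 1.67 (edgeR adjusted p = 0.096). Elsewhere high level went with wide spread between libraries of 1 genotype: 1382 to 11080 counts in KO upstream of Gm21631, 1562 to 8337 in WT upstream of Gm2651, 1511 to 6639 in WT after Ddx39b and 2877 to 8436 in WT opposite Gm48300. The genes Gm21631 and Gm2651 had 0 counts in every library.

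At the limits of the choice, the transcripts just inside the count minimum were those beside Gm45064 (60 counts) and 1700092C10Rik (60 counts), and just outside it those beside Egr3 and Mbl2 (59 counts each). At the distance limit the transcripts beside Map3k20 (9916 bases) and Poc1a (9842 bases) were inside and those beside Gas6 (10056 bases) and Fdx1 (10104 bases) outside.

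Genes of the machinery that cuts and ends transcripts, and of the nuclear exosome, showed no call. Of 36 genes of cleavage, polyadenylation and termination 35 were measured, 12 with a positive and 23 with a negative log2 fold change and a median of -0.04. None passed in edgeR or in DESeq2, and at an unadjusted edgeR p under 0.05 there were 0 higher and 1 lower, Scaf4, a binder of the polymerase tail (log2 fold change -0.23, SE 0.08, adjusted p = 0.164). Pcf11, which helps release the polymerase, had 0.22 (SE 0.11, adjusted p = 0.304). Of the 20 measured genes of the nuclear exosome and its adaptors, 4 were positive and 16 negative, with a median of -0.11. None passed in either tool, and 3 were lower at an unadjusted p under 0.05: Zfc3h1 (-0.28, SE 0.09) and Rbm7 (-0.34, SE 0.11), adaptors that bring nuclear RNA to the exosome, and Exosc6, a core subunit merged with Aars in the table (-0.38, SE 0.14). With library sizes alone the median of all loci moved from 0.03 to 0.26, a shift larger than either list median, so the signs of these lists depend on the scaling.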

How the data were processed

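RNA of 3 WT and 3 Armc5 KO adrenal gland samples was analysed from a table of whole-number read counts per locus, deposited by the authors as raw counts per the file headers. The submitters' processing notes name GRCm38 and, with no roles, the tools STAR, StringTie, Trimmomatic, Picard and edgeR. Versions, read counter and strand setting were not given in the sources used here. Other deposited columns, the authors' log2 CPM, log2 values scaled to Rn7sk and group values, entered no test.

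The members, the gene lists and the splits were chosen with earlier results of these data known, and the split of the opposite strand, the small RNA and transfer RNA groups, and names outside the rule were chosen after values were seen. The rule named, per position, up to 6 called transcripts per direction with the largest change, the 3 highest, up to 5 with the smallest ratio p, up to 10 beside called genes changed at least 2-fold, and those at the limits. The result for 1 called downstream transcript is not reported here.

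Counts of all loci were filtered with filterByExpr and tested with edgeR 4.0.16 (R 4.3.3; glmQLFit robust, glmQLFTest, two-sided), with TMM factors and library sizes from named loci and Benjamini-Hochberg adjustment over 26295 loci. Ratios were tested with limma 3.58.1 (trend, robust) over 4268 pairs. Both were also run on simulated counts, and the outcome is not given here. The planned search for poly(A) signals at the ends of the transcripts was not run because no genome sequence was used here. The alternatives were RLE factors, library sizes alone, equal Rn7sk counts, other filters, glmTreat against a fold of 1.2, DESeq2 1.42.0, a block for the replicate number, left-out libraries and other member limits.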

Additional observations from a re-analysis of the deposited data

How the results depend on the processing

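The number of transcripts called, 22, was 42 with library sizes alone and 45 with equal Rn7sk counts, 14 with glmTreat and 128 with DESeq2, and within 1.5 times 22 with RLE factors, other library sizes, other filters and other member limits. Leaving out 1 library gave 1 to 21, and leaving out both WT replicate 1 and KO replicate 3, chosen after seeing the data, gave 2 (1 higher, 1 lower). The calls over all loci moved with the same settings. They were 491 in the main fit, 959 with library sizes alone, 969 with equal Rn7sk counts, 231 with glmTreat and 3044 with DESeq2. Without 1 library they were 17 to 664, and without both libraries 22. The 14 ratio calls became 5 in limma with no trend, 3 to 16 without 1 library and 1 without both libraries. Same-numbered samples did not deviate together (correlations of -0.06, -0.0038 and -0.11). With 3 samples per genotype, these correlations cannot show whether the numbers pair samples. With the replicate block 0 transcripts and 1 ratio were called, while the block left 5 calls over all loci.

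The downstream median log2 fold change of 0.05 was 0.28 with library sizes alone, 0.24 with equal Rn7sk counts, 0.10 without both libraries, 0.10 with the nearest locus of 60 or more counts, and -0.038 (reversed, without KO replicate 2) to 0.089 without 1 library. The upstream 0.34 was 0.56, 0.53, 0.41 and 0.54 in the same order and 0.31 to 0.43 without 1 library. The opposite-strand 0.37 was 0.59, 0.57 and 0.42 in the first 3 and 0.32 to 0.43 without 1 library. The difference from the gene was 0.021 to 0.17 downstream, 0.24 to 0.42 upstream and 0.42 to 0.56 opposite without 1 library. Upstream it was 0.29 with library sizes alone, 0.39 without both libraries, 0.23 at 120 counts and 0.25 with the nearest locus of 60 or more counts, and opposite 0.44 and 0.42 in the second and last. The cause of these changes was not tested. Low counts limit what can be seen: in WT 66 of these transcripts held under 30 counts, and the depth does not show whether smaller differences are absent.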
